A study of Mus musculus with 3 samples.

Results

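Cullins are the scaffold subunits of the largest family of ubiquitin ligases, and the genes described here are 7 cullins (Cul1, Cul2, Cul3, Cul4a, Cul4b, Cul5 and Cul7) with 3 core partners (Rbx1, Ddb1 and Cand1). Their probes were chosen by name. Every non-control probe whose gene name in the scanner files equals 1 of these 10 symbols was taken, in both channels and on all 3 arrays, which gave 10 of the 21597 gene symbols on the array and 26 of its 41174 probes. The set was proposed with the high Cul4b ratio of these samples known, so the ratios of its members over the reference are given as a description, without a test.

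The tissue was the choroid plexus epithelium (CPE), the cell layer in the brain ventricles that secretes cerebrospinal fluid. The samples came from 3 healthy adult female C57BL/6 mice, for which no transgene and no treatment is given, and the CPE of the lateral ventricles was laser dissected from cryosections of 20 µm. Each mouse was hybridised to an Agilent 2-colour mouse array, with its amplified RNA in red (Cy5) and 1 common RNA of retinal pigment epithelium and choroid (RPE/choroid) of C57BL/6 mice in green (Cy3). All values are therefore levels of CPE, levels of the reference or their ratio, and since no array had its dyes swapped, a dye bias cannot be removed from any ratio. In dissected tissue, fewer cells of a type and less RNA per cell cannot be told apart, and the reference was 1 RNA, whose own spread between animals is not part of any error below. In the CPE channel 24083, 18934 and 35234 probes were well above background in mouse 1, 2 and 3. Of 7 measured marker genes of CPE, 6 were higher in CPE past the threshold given below, among them Kl and Prlr, and Otx2 was not past it. The markers of RPE and melanocytes (8 of 9) and of photoreceptors and stroma (9 of 10) were lower in CPE, while Best1 and Pecam1 were not past the threshold.

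A cullin holds at one end an adaptor with a substrate receptor and at the other the RING protein Rbx1, which brings in the ubiquitin-loaded E2 enzyme. The ligase becomes active when the ubiquitin-like protein NEDD8 is attached to the cullin, the COP9 signalosome takes NEDD8 off again, and Cand1 then helps to exchange the receptor. Cul1 works with Skp1 and F-box proteins, Cul2 and Cul5 with elongins B and C, Cul3 with BTB proteins, and Cul4a and Cul4b with Ddb1 and its receptors, the DCAF proteins. Cul4a and Cul4b are close relatives that share Ddb1, and Cul4b lies on the X chromosome.

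The promoters of Cul4b and Cul4a are shown because the ratios of these close relatives differed in every mouse. They are the 250 bases before the annotated start in RefSeq (GRCm38.p6), written 5′ to 3′ on the strand of the gene, at chrX:38576197-38576446 on the minus strand for Cul4b and at chr8:13105373-13105622 on the plus strand for Cul4a. Capitals mark matches to a searched motif, the CCAAT box (read here as ATTGG on the other strand) in Cul4b and the GC box GGGCGG in Cul4a.
Cul4b: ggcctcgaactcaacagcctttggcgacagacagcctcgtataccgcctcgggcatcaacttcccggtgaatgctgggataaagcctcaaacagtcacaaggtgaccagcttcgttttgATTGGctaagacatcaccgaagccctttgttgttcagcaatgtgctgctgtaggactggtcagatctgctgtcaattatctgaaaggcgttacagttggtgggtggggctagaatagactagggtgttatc
Cul4a: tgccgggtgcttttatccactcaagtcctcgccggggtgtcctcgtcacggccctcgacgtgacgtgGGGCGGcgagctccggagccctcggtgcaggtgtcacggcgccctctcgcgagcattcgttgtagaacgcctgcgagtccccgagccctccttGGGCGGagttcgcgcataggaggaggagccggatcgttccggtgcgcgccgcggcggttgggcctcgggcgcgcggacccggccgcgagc
The Cul4b promoter held 9 CpG and 50.8% G and C, with 1 CCAAT box and no GC box. That of Cul4a held 38 CpG and 71.6% G and C, with 2 GC boxes and no CCAAT box. The median of all 32851 promoters of the table was 6 CpG and 52.4% G and C, and on either strand 33.8% of them held a CCAAT box and 32.7% a GC box. Neither promoter matched the ETS motif CCGGAAG, the CRE TGACGTCA, the NRF1 motif, the E-box CACGTG, the OTX motif TAATCC or TATAAA. These motifs occurred in 6.91%, 1.55%, 0.782%, 6.02%, 6.25% and 12.4% of all promoters. A promoter was found for 9 of the 10 genes. Between 1 and 4 GC boxes were found in those of Cul3, Cul7, Rbx1, Ddb1 and Cand1 and in 2 of the 3 listed for Cul1, and none in that of Cul5. A match is a run of letters and not a shown binding site.

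Ratios below are log2 values of CPE over the reference, after background correction and loess normalization within each array, so that 1 is a 2-fold higher signal in CPE. Probes of a gene are numbered from 5′ to 3′ by their mm8 coordinates. A probe was tested when 1 or both channels were well above background on every array. The threshold was a limma adjusted p under 0.05 together with at least a 2-fold change. Of the 26 probes, 23 were tested, and 4 of these (17.4%) were past the threshold. Over all 25847 tested probes the share was 17.3%, with 7.09% higher and 10.2% lower in CPE. The 4 probes were both probes of Cul4b and the probe of Ddb1, which were higher in CPE, and the most 5′ probe of Cul5, which was lower. The other 19 tested probes had a mean within 1 of 0. The median ratio of the tested members was 0.017, against −0.040 over all tested probes, whose 10th and 90th percentiles were −1.01 and 0.81. Median centring of the arrays in place of loess moved the median of all probes from −0.040 to 0.092. It turned the sign of 7 of the 23 member ratios and the split of all calls from 1833 higher and 2629 lower to 3745 and 1842.

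**Figure D1:**
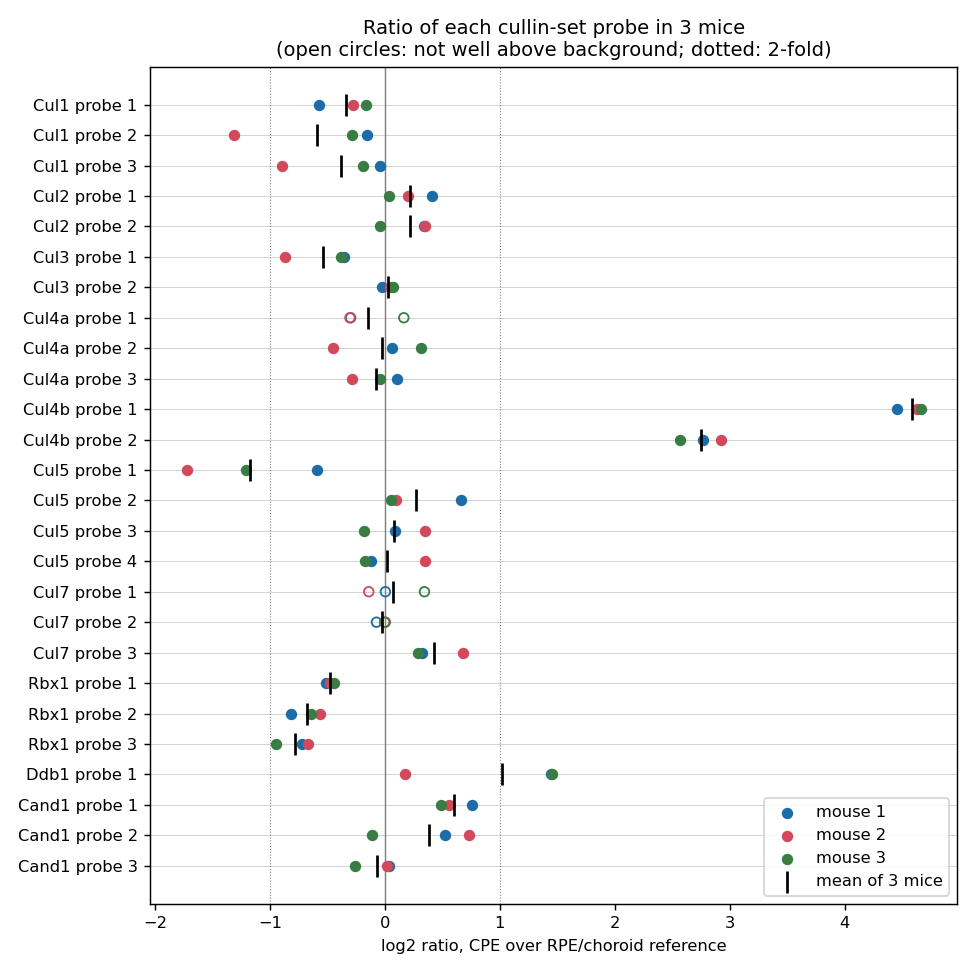
Log2 ratio of CPE over the RPE/choroid reference for the 26 probes of the 10 genes, 1 point per mouse and a bar at the mean of 3 mice, with open circles for the 3 probes that were not tested. Both Cul4b probes lie at 2.56 or above in every mouse, and the points of all other genes lie between −1.72 and 1.45.

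Cul4b had the highest ratios of the set. Its brighter probe (probe 1, X chromosome, 34778206 to 34778265, mm8, minus strand) had a CPE level of 13.68, 14.03 and 14.23 in mice 1, 2 and 3, and a reference level of 9.23, 9.40 and 9.57 on the same arrays (log2 scale). The ratios were 4.45, 4.63 and 4.66, with a mean of 4.58 ± 0.11 (SD, n = 3), which is a 24.0-fold difference. The SD between mice was below the median SD of 0.263 over all tested probes. Probe 2 (34776500 to 34776559) lies 1706 bases nearer the 3′ end. It had CPE levels of 12.01, 12.37 and 11.84, reference levels of 9.25, 9.45 and 9.28, and ratios of 2.76, 2.92 and 2.56. Its mean of 2.75 ± 0.18 (SD, n = 3) is a 6.72-fold difference. The CPE and reference levels did not overlap at either probe. This also held for member probes not past the threshold, among them Rbx1 probe 1 and Cand1 probe 1, and the share over all probes was not counted. The ratio of probe 1 exceeded that of probe 2 by 1.69, 1.71 and 2.10 in the 3 mice, so the size of the Cul4b difference depends on the probe while its direction does not. This range of 1.83 within a gene compares with a median of 0.44 over 5833 genes with several tested probes. By its brightest probe, Cul4b ranked 4 by ratio among 12321 genes measured in both channels on all arrays. No annotation of build mm8 was used, so the exons under the probes are not given.

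Its relative Cul4a had ratios near 0. Its brightest probe (probe 3, chromosome 8, 13147303 to 13147362, mm8, plus strand) had ratios of 0.10, −0.29 and −0.05, with a mean of −0.08 ± 0.20 (SD, n = 3). Probe 2 had ratios of 0.06, −0.45 and 0.31 (mean −0.03 ± 0.39). Both means were nearer 0 than their SD, and under median centring they were 0.59 and 0.28. Probe 1, which lies 37906 bases toward the 5′ end, was not well above background in either channel on any array. Within each array, the ratio of Cul4b probe 1 exceeded that of Cul4a probe 3 by 4.35, 4.92 and 4.71. The mean of this difference was 4.66 ± 0.29 (SD, n = 3). Taking Cul4b probe 2 instead, it was 2.66, 3.21 and 2.61. The separation of the relatives was present in every mouse with either Cul4b probe. Among the 12321 genes, Cul4a ranked 6841 by ratio.

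**Figure D2:**
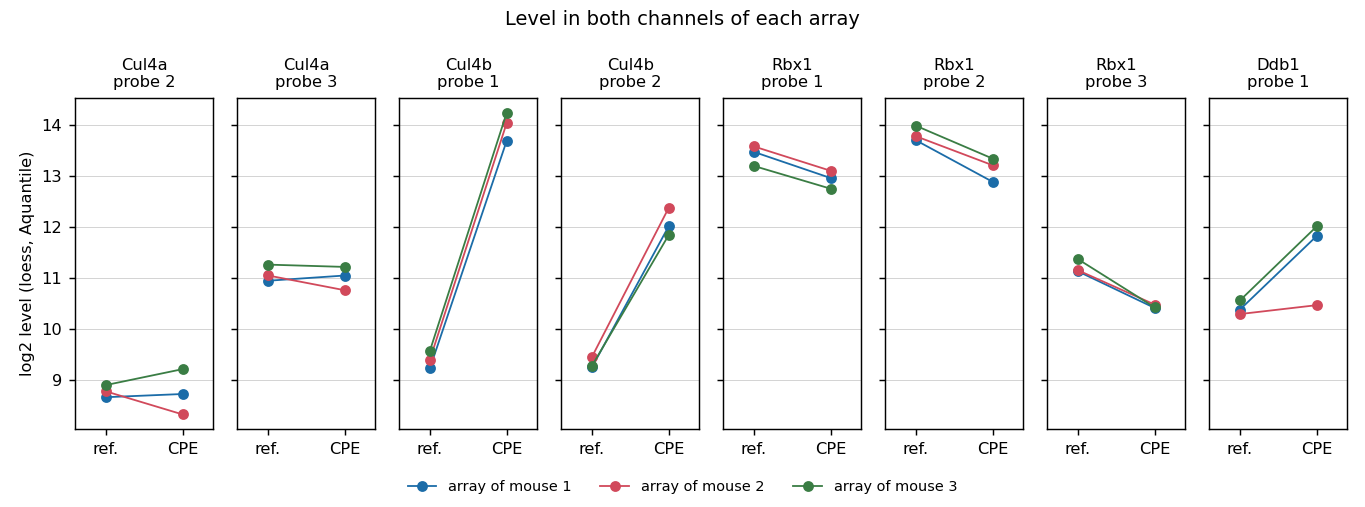
Log2 level after loess and Aquantile of the tested probes of Cul4a, Cul4b, Rbx1 and Ddb1, with the reference at the left and CPE at the right of each panel and 1 line per array. The lines of Cul4b rise steeply on all arrays (probe 1 from about 9.23 to 13.68 on that of mouse 1), those of Rbx1 fall (with median centring in place of loess, 2 of its 3 ratios turn), and that of Ddb1 is nearly flat in mouse 2; levels of different probes are not to be set against each other.

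The scaffolds of the Skp1, elongin and BTB ligases stayed within 1 of 0 at nearly all probes. Cul1, which carries the F-box receptors, had mean ratios of −0.34, −0.59 and −0.38 at its 3 probes and was below 0 in all mice. Its brightest probe (probe 2) had ratios of −0.16, −1.32 and −0.29, and probe 3, which overlaps it, had −0.05, −0.89 and −0.19. Mouse 2 was the lowest at both, and with median centring probe 3 turned to 0.05. Cul2, the scaffold of the VHL ligase, had ratios of 0.41, 0.20 and 0.03 at probe 1 and 0.34, 0.35 and −0.04 at probe 2. The mean was 0.22 at each, about 1 SD from 0 (SD 0.19 and 0.22, n = 3).

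Cul3, which binds BTB receptors such as Keap1, gave different values along the gene. Its 3′ and brightest probe had ratios of −0.03, 0.04 and 0.07, with a mean of 0.03 ± 0.05 (SD, n = 3). The probe 4490 bases toward the 5′ end had −0.35, −0.87 and −0.38 (mean −0.53 ± 0.29, SD, n = 3). Its ratio minus that of the 3′ probe was −0.33, −0.91 and −0.46, below 0 in all mice, and under median centring its own mean turned to 0.07.

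Cul5, the scaffold of the SOCS-box ligases, also had its lowest mean at the 5′ end, with a wider range. The means of its other probes were 0.27, 0.08 and 0.02 from 5′ to 3′. Each was nearer 0 than its SD (0.34, 0.27 and 0.29, n = 3). Its most 5′ probe (chromosome 9, 53406989 to 53409086, mm8, minus strand, coordinates that put an intron inside the target) had ratios of −0.59, −1.72 and −1.21, with a mean of −1.17 ± 0.57 (SD, n = 3). This was the only member probe past the threshold and lower in CPE. It was no longer past it without mouse 2 (−0.90) or under median centring (−0.62). The 3 other probes lie downstream, the last of them 29784 bases away. Probe 2 had ratios of 0.66, 0.10 and 0.05 and was well above background in CPE on 2 arrays only. Probe 3 had 0.09, 0.34 and −0.19. The brightest, probe 4, had −0.12, 0.35 and −0.17, with a mean of 0.02. The ratio of the 5′ probe minus that of probe 4 was −0.46, −2.07 and −1.04 in the 3 mice, so a Cul5 difference was seen at 1 of 4 probes.

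Cul7, which pairs with the F-box protein Fbxw8, was measured at its 3′ probe alone. There the ratios were 0.32, 0.68 and 0.29 (mean 0.43 ± 0.22, SD, n = 3), above 0 in all mice. Under median centring the mean was 1.03 and past the threshold. Probes 1 and 2 lie 12377 and 10650 bases toward the 5′ end, and each was well above background in CPE on 1 array, that of mouse 3 having the highest percentile at both.

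Rbx1, the RING subunit of most of these ligases, lay below the reference by less than 2-fold. Its brightest probe (probe 2, chromosome 15, 81302411 to 81302470, mm8, plus strand) had ratios of −0.81, −0.57 and −0.64 (mean −0.68 ± 0.13, SD, n = 3). Probe 1, which overlaps it, had −0.51, −0.48 and −0.45, with an SD of 0.033, the smallest among the tested members. Probe 3 had −0.72, −0.67 and −0.94. All 9 values were below 0, yet under median centring probes 1 and 2 turned to 0.39 and 0.20 while probe 3 stayed at −0.12. The direction of Rbx1 therefore rests on the scaling.

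Ddb1, the adaptor that links Cul4a or Cul4b to DCAF receptors, had 1 probe (chromosome 19, 10694865 to 10695484, mm8, plus strand). Its CPE levels were 11.82, 10.47 and 12.01 and its reference levels 10.38, 10.29 and 10.56 in mice 1, 2 and 3. The ratios were 1.44, 0.17 and 1.45, so mice 1 and 3 agreed and mouse 2 was near the reference. The mean of 1.02 ± 0.73 (SD, n = 3) is a 2.03-fold difference and was just past the threshold. Without mouse 1, without mouse 3, without background correction or with the ratio of the scanner software it was not past it, and without mouse 2 it was. The spread between mice was thus almost as large as the mean.

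Cand1, the exchange factor, had its highest ratio at the most 5′ and brightest probe, with 0.76, 0.56 and 0.49 (mean 0.60 ± 0.14, SD, n = 3). Probe 2 had 0.53, 0.73 and −0.11, and probe 3, at the 3′ end, 0.03, 0.02 and −0.26. Probe 1 exceeded probe 3 by 0.73, 0.54 and 0.74, whereas in Cul3 and Cul5 the most 5′ probe was the lowest. The range within the gene was 0.67 for Cand1 and 0.56 for Cul3, against the median of 0.44 over 5833 genes with several tested probes. Median centring raised probe 1 to 1.31, past the threshold, and turned probe 3 to 0.47.

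The rank of each probe in CPE was taken from the red signal alone, without background correction, over all 41174 probes. It says where a probe lies on the array and does not order transcripts by abundance. By the mean level, 9 of the 26 probes were in the high class (above the 90th percentile), 14 in the moderate class (50th to 90th), 1 in the low class and 2 in the very low class. High were both Cul4b probes, all 3 of Rbx1, the probe of Ddb1, and 1 each of Cul3, Cul4a and Cand1. Cul4b probe 1 was at the 99.4th percentile, at 99.1, 99.4 and 99.5 in the 3 mice. Rbx1 probe 2 was at the 98.8th and Ddb1 at the 95.1st. High rank and ratio were separate here, since Cul4a probe 3 at 93.6, Cul3 probe 2 at 95.1 and Rbx1 were in the high class with ratios near or below 0. The very low probes were Cul4a probe 1 (2.2) and Cul7 probe 1 (8.2), and Cul7 probe 2 was low (28.1). No member probe was saturated on any array.

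**Figure D3:**
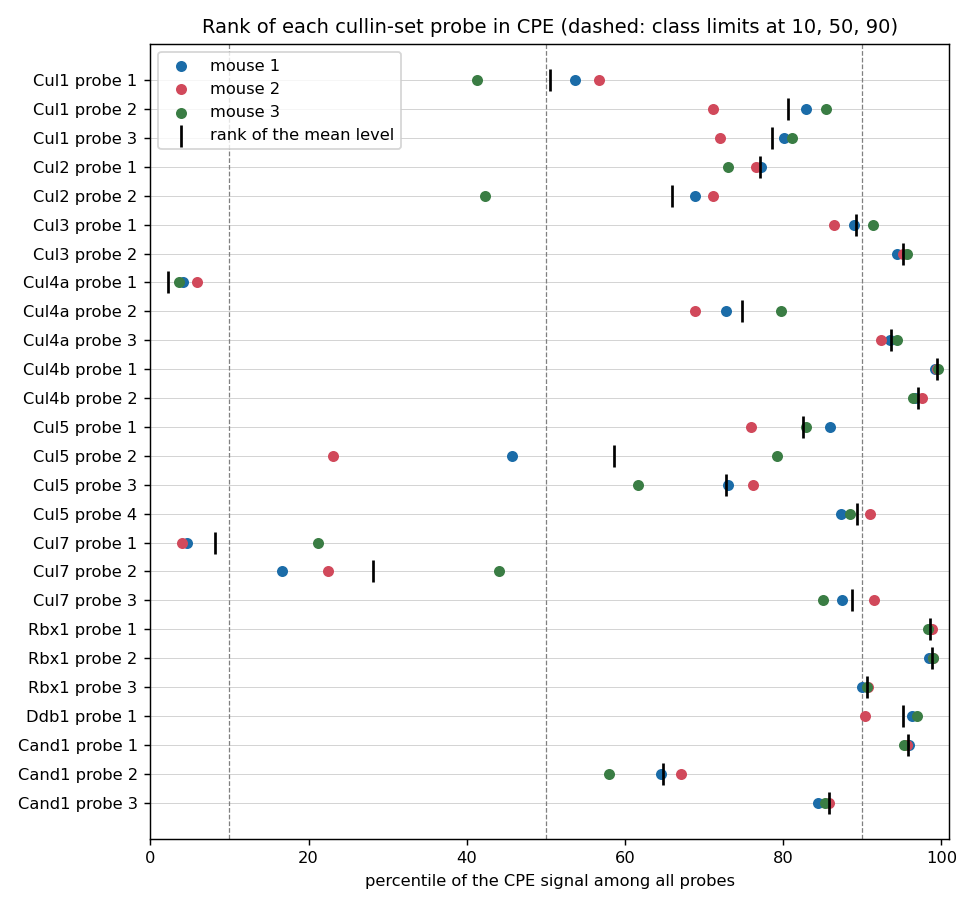
Percentile of the CPE signal of each of the 26 probes among all 41174 probes, 1 point per mouse, with a bar at the rank of the mean level and dashed lines at the limits of the expression classes (10, 50 and 90). Cul4b and Rbx1 probes lie at or above the 90th percentile in all mice, and Cul5 probe 2 spreads from 23.1 to 79.2.

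The median spread between mice was smaller for the members than for all probes. Most member probes were in the high or moderate class, and the comparison was not matched for level. Over tested probes, the median SD of the ratio was 0.215 for the members and 0.263 for all probes. In the CPE channel the median SD was 0.278 against 0.358, and in the reference channel, which carried 1 RNA, it was 0.136 against 0.210. Of 23 tested probes, 15 had ratios of 1 sign in all mice, which was not counted over all probes. The wide ratios were those of Ddb1 (SD 0.73), Cul1 probe 2 (0.63) and Cul5 probe 1 (0.57), and in each of them mouse 2 was the lowest. Over the 23 tested probes mouse 2 was lowest at 7 only, so it was not the lowest mouse across the members. The share over all probes was not counted. Mouse 2 had the fewest CPE probes well above background, and the part of signal over background in these wide ratios was not tested.

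Around Cul4b on the X chromosome, higher ratios were also found for other genes. Of the genes with a probe within 250 kb, Lamp2, a membrane protein of lysosomes, had 3 probes. Its ratio was 2.52 (SE 0.15, adjusted p 3.17e-05 in limma) at the middle probe, 1.25 (SE 0.26, adjusted p 0.00773) at another, and 0.55 (adjusted p 0.0282) at the last, which did not reach 2-fold. C1galt1c1, the chaperone of an O-glycan galactosyltransferase, was higher at 1 probe (1.73, SE 0.15, adjusted p 0.000160 in limma) and not at the other (−0.02, adjusted p 0.930). That other probe was dim, at the 27.6th percentile in CPE and well above background there on 2 arrays only. Mcts1 lies between Cul4b and C1galt1c1 and had −0.24 (adjusted p 0.267 in limma), or 0.49 under median centring. Atp1b4 and a transcript without a symbol were not tested because their probes were not well above background. Over the X chromosome the median of 856 tested probes was 0.0030, against −0.043 over 24813 autosomal probes. Of the X probes 7.59% were past the threshold and higher, against 7.09% of all tested probes. Cul4b probe 1 had the rank 2 among X probes, which is a description only, since the set was proposed with its high ratio known.

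**Figure D4:**
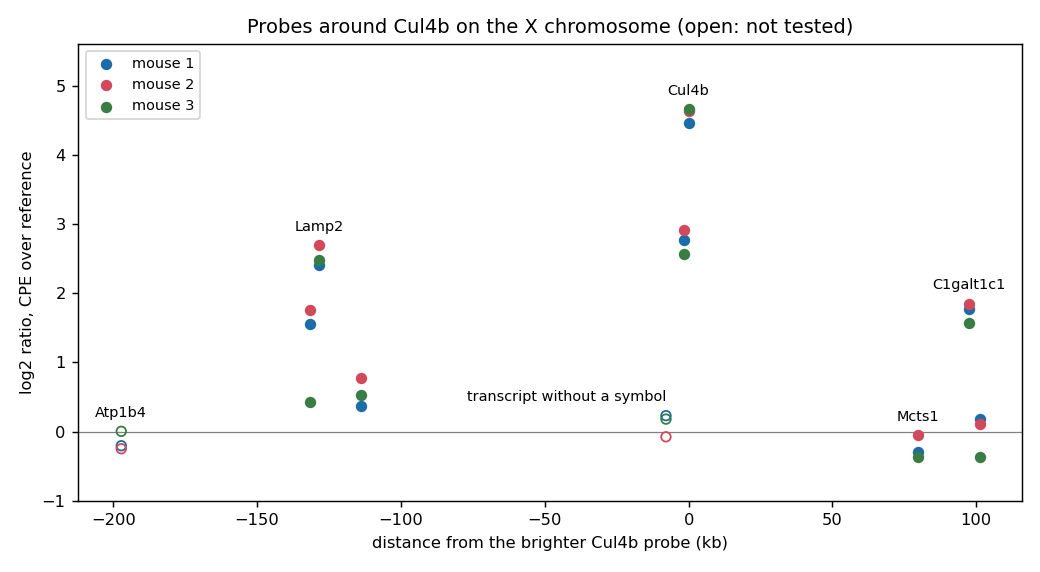
Log2 ratio of CPE over the reference for the probes within 250 kb of the Cul4b probes, 1 point per mouse, against the distance from the brighter Cul4b probe in kb, with open circles for probes not tested. Cul4b lies highest, 1 Lamp2 probe lies near 2.52 and 1 C1galt1c1 probe near 1.73, and Mcts1 lies near 0.

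The genes with ratios most like those of Cul4b probe 1 were ranked by the root mean square difference over the 3 arrays, among 12311 genes by their brightest probe. The 5 nearest were Steap1 (0.318), Dynlrb2 (0.334), Cyb561 (0.339), Igfbp2 (0.405) and 1110017D15Rik (0.408). Steap1, a member of the STEAP family, had ratios of 4.94, 4.45 and 4.85. Dynlrb2, a dynein light chain, had 4.70, 4.32 and 4.24, and Cyb561, an electron-transfer protein of vesicle membranes, 4.63, 4.30 and 4.21. Likeness here means a ratio of similar height in the same 3 mice.

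The other genes of the system were taken from 8 lists by role, each gene being read at its brightest probe. Of 133 listed genes, 126 were on the array by name and 121 were tested, of which 4 were higher and 7 lower in CPE past the threshold (9.09%). Over all 15594 genes with a symbol the share was 20.1%, with 8.84% higher and 11.2% lower. The median ratio of the lists' genes was −0.070, against −0.016 over all these genes. The other 110 were not past the threshold, and under median centring the median was 0.47 and the signs of 36 genes turned.

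**Figure D5:**
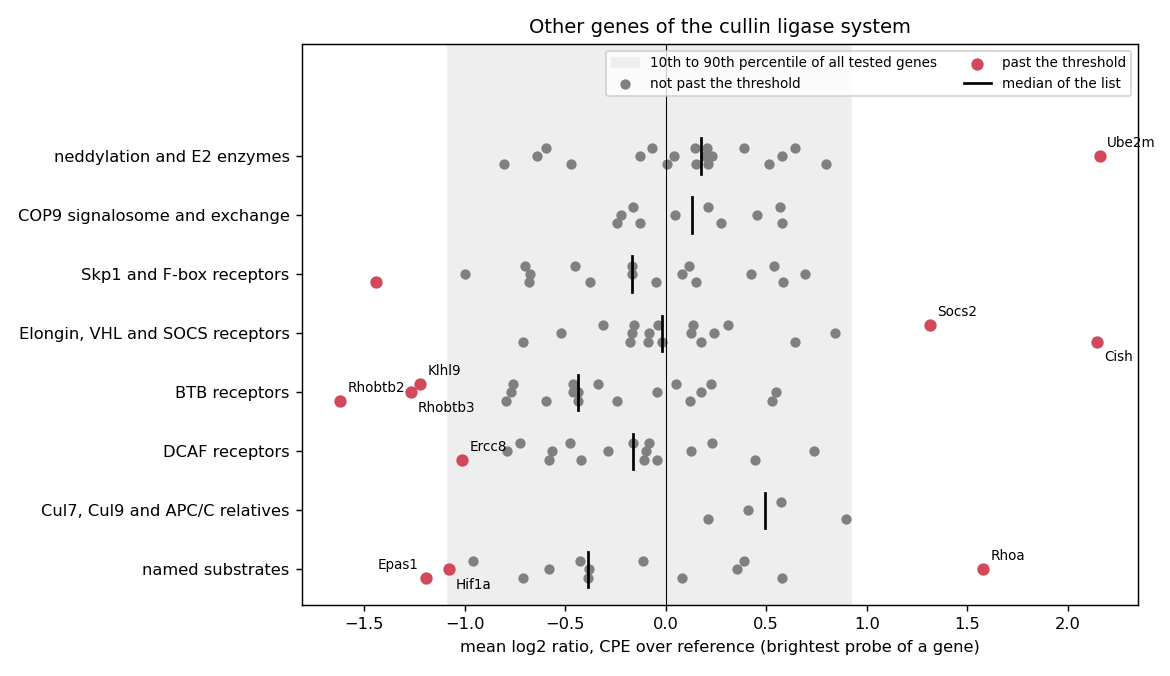
Mean log2 ratio of CPE over the reference over 3 mice for the 121 tested genes of the 8 lists, 1 point per gene, red where past the threshold (1 of these is not named), with a bar at the median of the list and a grey band from the 10th to the 90th percentile of all tested genes (−1.08 to 0.92). Ube2m, Cish, Rhoa and Socs2 stand to the right of the band.

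Among the enzymes that load NEDD8 and ubiquitin, 1 of 20 was past the threshold, with a list median of 0.17. It was Ube2m, the E2 enzyme that passes NEDD8 to most cullins. Its ratios were 2.26, 2.02 and 2.20 (mean 2.16, SE 0.15, adjusted p 5.65e-05 in limma), and its second probe had 1.94. NEDD8 itself (Nedd8) had 0.15, and its E1 subunits had −0.07 (Uba3) and −0.80 (Nae1, adjusted p 0.0125 in limma, under 2-fold). Rnf7, the RING partner of Cul5 in place of Rbx1, had 0.58. The Ube2m ratio was above 2 in every mouse, while those of NEDD8, its E1 subunits and Rnf7 lay between −0.80 and 0.58.

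None of 10 genes of the COP9 signalosome and exchange list was past the threshold, with a range of −0.24 to 0.58 and a median of 0.13. The highest were Cops2 (0.58, adjusted p 0.0182 in limma, 1.27 and past the threshold under median centring) and Cand2, the relative of Cand1 (0.57, adjusted p 0.0665). The catalytic subunit Cops5 had 0.05 ± 0.25 (SD, n = 3).

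On the side of Cul1, the 17 tested genes of Skp1 and F-box receptors had a median of −0.17 (0.18 under median centring), and none was past the threshold and higher. Fbxo9, an F-box receptor, had ratios of −0.99, −0.95 and −1.05 (mean −0.998, SE 0.15, adjusted p 0.00178 in limma), just under 2-fold. The adaptor Skp1a had −0.05.

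For Cul2 and Cul5, 2 of 19 tested adaptors and receptors were past the threshold and higher, and none lower, with a median of −0.02 (0.59 under median centring). Both were SOCS-box feedback inhibitors of cytokine receptors. Cish had ratios of 2.57, 2.17 and 1.71 (mean 2.15, SE 0.20, adjusted p 0.000175 in limma). Socs2 had 1.81, 1.33 and 0.80 (mean 1.31, SE 0.21, adjusted p 0.00250), and 0.35 at its other probe. Elongin B (Tceb2) had 0.65, elongin C (Tceb1) −0.52 and the von Hippel-Lindau receptor (Vhlh) −0.31.

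For Cul3, 3 of 20 BTB receptors (15%) were past the threshold and lower, and none higher. The share lower over all genes with a symbol was 11.2%. The list had the lowest median among the lists (−0.44, or −0.06 under median centring). Rhobtb2 had −1.54, −1.88 and −1.43 (mean −1.62, SE 0.16, adjusted p 0.000292 in limma), but its tested probes ranged up to −0.09. Rhobtb3 had −1.27 (adjusted p 0.00195) and was not past the threshold under median centring (−0.94). Klhl9, which acts in mitosis, had −0.90, −1.97 and −0.79 (mean −1.22, adjusted p 0.00649 in limma). It was well above background in CPE on 2 arrays and not past the threshold without mouse 2 (−0.85) or under median centring (−0.97). Keap1, the sensor that holds Nfe2l2, had 0.18.

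For Cul4a and Cul4b, 1 of 17 tested DCAF receptors and partners was past the threshold and lower, with a median of −0.16 (0.22 under median centring). This was Ercc8, the receptor of transcription-coupled repair, with −1.18, −0.64 and −1.21 (mean −1.01, SE 0.18, adjusted p 0.00351 in limma). Another of its probes was at 0.02, and it was not past the threshold without mouse 1, without mouse 3, without background correction or under median centring. Dcaf7 had −0.79 (adjusted p 0.00750) at its brightest probe and 0.72 at the other, Ddb2, the receptor of damaged DNA, −0.72, and Crbn, the receptor of thalidomide-type drugs, −0.16. The highest of the 17 was Dcaf11, with 0.76, 0.80 and 0.65 (mean 0.74, adjusted p 0.00699 in limma, under 2-fold), and 1.49 under median centring. None of the 17 was past the threshold and higher, the direction of Cul4b and Ddb1. Over all genes with a symbol that share was 8.84%, so few would be looked for among 17.

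None of the 4 measured genes listed as partners or relatives of Cul7 was past the threshold, with a median of 0.49. Anapc11, the RING subunit of the anaphase-promoting complex, had 0.90 (SE 0.15, adjusted p 0.00301 in limma), with 1.75 at another probe, and 1.69 at the first under median centring, past the threshold. Fbxw8, the partner of Cul7, had 0.57 (adjusted p 0.0260), above 0 in every mouse as Cul7 probe 3 was.

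Among 14 tested transcripts of known substrates, 1 was past the threshold and higher and 2 lower, with a median of −0.39 (0.26 under median centring). These 21.4% compare with 20.1% past the threshold over all genes with a symbol. Rhoa, a GTPase that Cul3 ligases mark for degradation, had 1.68, 1.34 and 1.71 at its brightest probe (mean 1.58, SE 0.16, adjusted p 0.000299 in limma) and −0.75 at the other. Of the targets of the VHL ligase, Hif1a had −1.12, −1.14 and −0.98 (mean −1.08, adjusted p 0.00131 in limma), and −0.36 under median centring. Epas1 had −1.70, −1.34 and −0.54 (mean −1.19, adjusted p 0.00560), and 0.36 at its other probe. It was not past the threshold without mouse 1 (−0.94) or under median centring (−0.98), and nor was Hif1a under the latter. Nfe2l2, the substrate of Keap1, had 0.58, and Ctnnb1 −0.58.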

How the data were processed

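CPE of 3 mice was set against 1 RPE/choroid reference on 2-colour arrays. The authors scanned them with Agilent Feature Extraction 9.5.3.1. The deposited scanner tables hold an intensity and a local background intensity per spot and channel, a processed intensity, flags, and, per the file headers, the log10 ratio of red over green. The table of the whole series, deposited by the authors, holds log2 levels normalized between arrays with Aquantile in R 2.14.0 and limma, and served as an alternative.

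Scanner intensities were read in R 4.3.3 with limma 3.58.1. Background was corrected with normexp (offset 50), arrays were normalized with loess, and control and outlier spots were left out. Channel levels were then scaled with Aquantile. Probes with 1 or both channels well above background on every array were tested with limma against 0, with an intercept alone and Benjamini-Hochberg adjustment over 25847 probes. An adjusted p under 0.05 with at least a 2-fold change was past the threshold. P-values and SE rest on the spread between these 3 mice, which limma moderated toward that of all tested probes. They are therefore not those of a probe's own 3 values alone. Ddb2, for example, had an SD of 0.013 and an SE of 0.15. The number of arrays limits the precision. Percentiles used the red intensity without background correction, as in the study's methods. Probe coordinates are those of mm8, per the file headers. The procedure was tested on simulated data.

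The members and the gene lists were chosen with earlier results of these data known. All members and their probes are named. From each list up to 4 genes past the threshold with the largest absolute ratio are named, or the 2 largest tested where fewer than 2 passed, and others as background to a member. A gene that this rule names is not reported here. Genes near Cul4b (250 kb) and the 5 genes most like it were named by rule. Of the 26 probes, 18 had an accession in the RefSeq gene table, and all 18 kept their symbol. Alternatives were no background correction, the scanner ratio, median centring, other filters on dim probes, array weights, other rankings, the mean over the probes of a gene, and leaving out each mouse.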

Additional observations from a re-analysis of the deposited data

How the results depend on the processing

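Both Cul4b probes stayed past the threshold and higher in CPE under each alternative refitted over all probes. The ratio of the brighter was 4.45 without background correction, 4.82 with the scanner ratio, 5.32 with median centring and 4.54 to 4.65 when a mouse was left out. With the scanner ratio, 6756 probes were past the threshold, 2846 of them higher, and 8 pathway genes were higher. With median centring, 3745 probes were higher, and 22 pathway genes were past the threshold (20 higher and 2 lower), of which 6 were among the 11 of loess. With median centring 5 member probes were past it, the 2 of Cul4b with Ddb1, Cul7 probe 3 and Cand1 probe 1. The mean over all tested probes of a gene left 5 pathway genes. When a mouse was left out, 4029 to 5313 probes were past the threshold, 1433 to 2484 higher and 2591 to 2829 lower. Of the pathway genes it left 11 to 12 (4 to 5 higher, 6 to 8 lower), and of the member probes 3 each time. In the high class were 9 to 10 member probes without a mouse, and 5 when only probes above background on all arrays were ranked. The median SD of the members in the CPE channel was 0.791 with median centring of each channel. The cause of these shifts was not tested. No paired analysis was possible because the samples form 1 group and each ratio is already within an array. Signal over background limits 3 member probes, which had no test, and the arrays of mice 1 and 2 held fewer CPE probes above background than that of mouse 3.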
